A study of Mus musculus with 38 samples.

Results

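The genes described here encode the Rab GTPases, the SNARE proteins of the Vamp, syntaxin and Snap families, the vacuolar protein sorting (Vps) proteins and the sorting nexins (Snx) of the mouse cortical collecting duct (CCD). They were chosen by symbol, as Rab, Vamp, Stx, Vps or Snx followed by a number and, for Snap, the symbols Snap23, Snap25, Snap29 and Snap47, with a mean of at least 1 TPM, a share of all transcripts corrected for transcript length, over 24 RNA-seq libraries. Of 148 symbols of this form, 134 reached the limit, out of 55416 genes in that table, and 75 of the 134 were also listed in a second table of 5035 genes. The tissue was CCD segments microdissected from kidneys of C57BL/6 mice, and neither age nor sex is given in the sources used here.

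The question of the series was how the CCD transcriptome responds when antidiuretic hormone stays in excess. Wild-type mice received dDAVP (desmopressin), a vasopressin analog that acts on the V2 receptor, or saline for 5 days, which gave 4 dDAVP and 4 saline RNA-seq libraries and 3 dDAVP and 3 saline ATAC-seq libraries. ATAC-seq measures how accessible chromatin is to a transposase. A separate RNA-seq table held 4 numbered MT units and 4 numbered WT units of 3 libraries each, where MT carries a mutation of the β-catenin residue that the labels call S552, a target of protein kinase A. The labels of these 24 libraries conflict, since each is labelled as dDAVP-treated C57BL/6, MT and WT appear in the titles alone, and the table is named as one without vasopressin. One dDAVP RNA-seq library, treated here as number 4, is titled CCD-4 and dDAVP-3. The labels do not say that libraries or units came from separate animals, so the p-values below measure the spread between these samples, which may be technical.

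Membrane trafficking moves cargo between organelles in vesicles and tubules. Rab GTPases mark each compartment and recruit motors and tethers, the tethers capture an incoming vesicle, and SNAREs on vesicle and target zip together to fuse the membranes. Retromer and the sorting nexins return cargo from endosomes to the Golgi or the cell surface, while the ESCRT complexes send ubiquitinated cargo into the lumen of endosomes for degradation. In the principal cells of the collecting duct these routes carry the water channel aquaporin-2 (AQP2) to the apical membrane when vasopressin acts, and back into endosomes when it is withdrawn.

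The 134 genes together made up 9226 ± 102 TPM in the MT units and 9118 ± 159 TPM in the WT units (SD, n = 4 each), or 0.923% of all transcripts in MT and 0.912% in WT. A level in TPM is already divided by transcript length, so levels of different genes can be set side by side. Vamp8, a SNARE of late endosomes and secretory vesicles, had the highest mean level over the 24 libraries, 526 TPM. Rab11a of the recycling endosome followed with 343 TPM and Rab14, which acts between endosomes and the Golgi, with 339 TPM. These were followed by Stx7, a late endosomal syntaxin, with 332 TPM, and Vps28, a subunit of ESCRT-I, with 325 TPM. The SDs of Rab11a, Rab14 and Stx7 between units overlapped, so their order within this group is not resolved: Rab11a had 344 ± 12.9 TPM in MT and 342 ± 13.3 TPM in WT units, and Rab14 had 353 ± 11.9 TPM in MT and 326 ± 23.4 TPM in WT units. The 18 genes of highest level held 50.9% of the summed TPM of all 134. At the low end, Rab26 with 1.62 TPM and Stx1a with 1.26 TPM lay just inside the limit, while Snx20 with 0.893 TPM lay just outside it. Snap25, the neuronal member of its family, averaged 0.254 TPM and was left out by the same limit.

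The families differed in how their transcripts were spread over members. The Vamp and Snap families were each dominated by a single gene. Vamp8 supplied 61.0% ± 2.27 of the summed TPM of the 6 Vamp genes in MT and 62.2% ± 1.32 in WT units. Snap47, a widely expressed relative of Snap25, supplied 74.1% ± 1.31 of the 3 Snap genes in MT and 74.96% ± 0.666 in WT units. Among the 12 syntaxins, Stx7 supplied 43.1% ± 2.39 in MT and 40.0% ± 0.778 in WT units (SD, n = 4 each). The large families were spread more evenly: the leading gene supplied 8.95% ± 0.249 of the TPM of the 52 Rab genes in MT and 9.14% ± 0.354 in WT units (Rab11a), and 15.1% ± 0.468 of the 33 Vps genes in MT and 15.6% ± 0.691 in WT units (Vps28). For the 28 sorting nexins, Snx3, an adaptor that brings cargo to retromer, supplied 18.3% ± 0.840 in MT and 17.9% ± 0.365 in WT units. All 33 Vps symbols reached the limit, against 52 of 59 Rab, 28 of 30 Snx, 12 of 15 Stx, 6 of 7 Vamp and 3 of 4 Snap symbols.

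**Figure D1:**
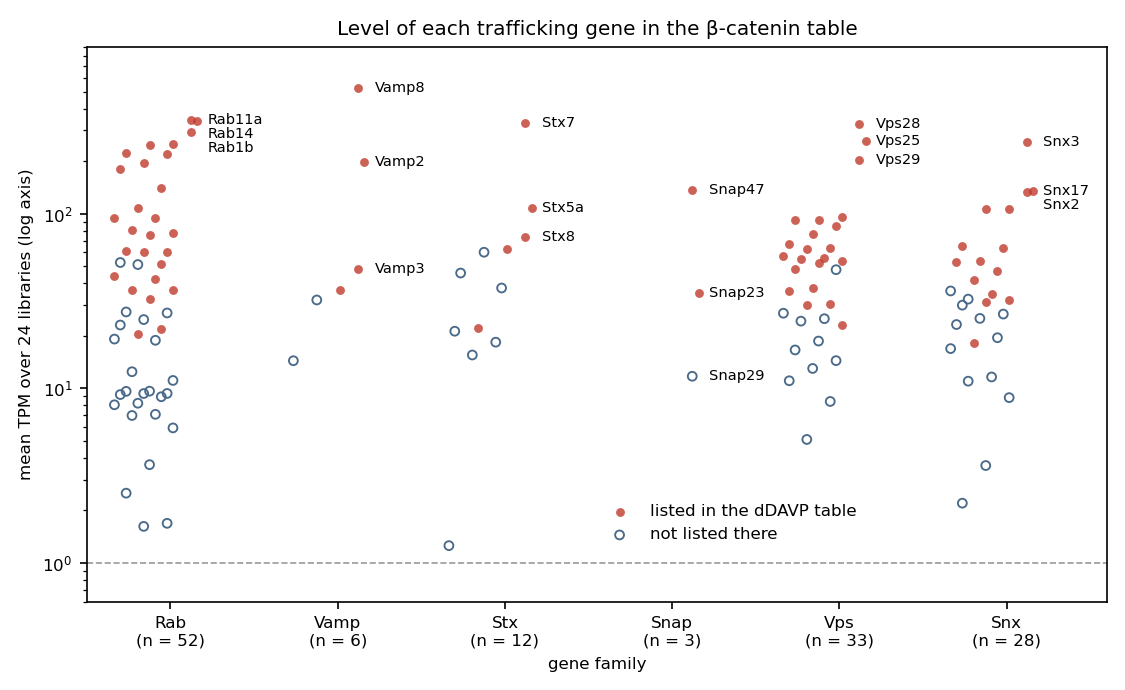
Mean TPM over the 24 libraries of the β-catenin table (vertical log axis) for each of the 134 genes, by family; filled red points are the 75 genes that the dDAVP table also lists and open blue points the 59 that it does not. The 3 genes of highest level are named in each family, and the dashed line is the limit of 1 TPM; all 24 genes of 100 TPM or more are filled, and all 21 genes below 10 TPM are open.

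A sequence of the promoter was found in the RefSeq tables (build GRCm38.p6) for 105 of the 134 genes, as 132 windows running from 250 bases before to 50 bases after a transcript start. A palindrome made of GTCAC followed by GTGAC is the core of the CLEAR element, the site through which the TFEB family of factors is known to act on lysosomal genes, and it contains the E-box CACGTG. It was in 7 of the 132 windows (5.30%), which belong to 6 genes, against 0.653% of 13323 windows of tested genes and 0.326% of all 32851 windows. The 30 bases around each match are shown because these genes act at several steps of endosomal traffic; capitals mark the palindrome.
Vps16: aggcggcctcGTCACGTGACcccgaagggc
Vps33a: tgaacgtcccGTCACGTGACgcaggcggcg
Vps26a, first start: cgcacggctcGTCACGTGACaactagctct
Vps26a, second start: atggcctacgGTCACGTGACgggcggcggg
Rab21: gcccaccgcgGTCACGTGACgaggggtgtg
Rab24: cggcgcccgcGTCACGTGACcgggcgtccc
Rab5a: acccggggatGTCACGTGACttcggccccg

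Vps16 and Vps33a are core subunits of the HOPS and CORVET tethers of endosomes and lysosomes, and their windows lie at chr2:130424290-130424319 on the plus strand and chr5:123573010-123573039 on the minus strand. Vps26a is the cargo-binding arm of retromer, with windows on the minus strand at chr10:62486970-62486999 and chr10:62486732-62486761. Rab5a and Rab21 act on early endosomes and Rab24 has been linked to autophagy. Their windows lie at chr17:53479127-53479156 on the plus strand, chr10:115315604-115315633 on the minus strand and chr13:55321961-55321990 on the minus strand. All 7 windows lay inside an ATAC-seq peak, which the authors' deposited table assigns to the same gene except for Vps16, whose window lies in a peak assigned to Pced1a. The level of these genes ranged from 21.9 TPM for Rab21 to 108 TPM for Rab24.

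The full cAMP response element TGACGTCA, the site of the factors that protein kinase A activates, was in 2 of the 132 windows (1.52%), against 2.93% of windows of tested genes and 1.79% of all windows. Both are shown, with the element in capitals.
Rab25: tttaacctgtcTGACGTCAtcatcgctcca
Rab5a: agcggcggaaaTGACGTCAcggcgttcttc

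Rab25, an epithelial relative of Rab11a, has its window at chr3:88548346-88548375 on the minus strand, and that of Rab5a lies at chr17:53479195-53479224 on the plus strand. The dDAVP level of Rab25 was 128 ± 25.5 TPM against 126 ± 26.6 TPM under saline (SD, n = 4 each, log2 difference 0.03, limma adjusted p = 0.977). The other motifs were searched on both strands too. The variant TGACGCAA of the cAMP response element was in 3.03% of windows of the trafficking genes and 0.871% of windows of tested genes, CACGTG in 12.1% and 9.78%, and AP-1 (TGACTCA) in 4.55% and 3.63%. The ETS word CCGGAAG was in 12.9% and 17.1%, the GC box GGGCGG in 66.7% and 60.9%, and the inverted CCAAT box ATTGG in 37.1% and 37.7%. The NRF1 palindrome (GCGCA then TGCGC) was in 1.52% and 1.95%, the CGCG palindrome (TCTCG then CGAGA) in 0.758% and 0.953%, and the ZNF143 word (ACTACA then ATTCC) in 0% and 0.645%. A pair of overlapping YY1 words (AAGAT then GGCGG, and AGATG then GCGGC) were in 3.03% of windows each, against 1.94% and 1.58%, and were found in the same 4 genes, Rab22a, Rab28, Snx13 and Vps33a.

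Facts of the libraries bear on the dDAVP comparison. The dDAVP table lists only genes above 10 TPM in all 8 libraries, so a gene that was lower than this in any library is missing from it. By median correlation with the rest, saline libraries 3 and 4 stood lowest at 0.863 and 0.839, while the other 6 libraries had 0.913 to 0.934. The summed TPM of 8 principal cell markers, Aqp2 among them, was 63241 to 87112 in the dDAVP and 28387 to 29626 in the saline libraries, and that of 9 intercalated cell markers was 3847 to 5188 in the dDAVP and 6349 to 7943 in the saline libraries. The 3 listed of 9 proximal tubule markers summed to 1000 to 9891 TPM in the dDAVP libraries, and to 7691 TPM in saline library 3 and 404 TPM in saline library 4, the highest and lowest of the saline libraries. Umod, the 1 listed of 5 markers of the thick limb and distal convoluted tubule, was 20.95 to 5253 TPM in the dDAVP and 84.1 to 825 TPM in the saline libraries. The 3 listed of 12 endothelial, stromal and immune markers summed to 233 to 1070 TPM in the dDAVP and 110 to 806 TPM in the saline libraries. The 14 listed of 16 immediate early genes, which respond to handling, summed to 1581, 10435, 1606 and 1001 TPM in dDAVP libraries 1 to 4. In saline libraries 1 to 4 they summed to 3711, 14279, 4574 and 11044 TPM. All dDAVP libraries but library 2 thus lay below every saline library. No listed marker was at 0, and the part of these markers in the values below was not tested. Each sum adds plain TPM, so a gene of high level weighs most in it, and the sums were not split by gene. In such bulk samples, a change in cell number and a change in RNA per cell, also of 1 gene such as Aqp2, cannot be told apart.

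None of the 75 listed trafficking genes passed the test of dDAVP against saline (limma on log2 of TPM + 1, adjusted p below 0.05), against a background of 35 of 5035 genes, or 0.695%. At an unadjusted p below 0.05 there were 2 of 75, Vamp3 and Snx13, against 11% of all genes. The dDAVP and saline libraries were fully apart for 0 of the 75, against 8.58% of all genes, and 0 had an adjusted p below 0.05 in the authors' deposited table, against 1.03% of all genes. The median log2 difference was -0.12, with a range of -0.93 to 0.66, beside a median of -0.06 over all 5035 genes, and 45 of 75 (60.0%) lay below 0, against 56.4% of all genes. After rescaling by the median of ratios the median was -0.06 for the 75 genes and -0.0004 for all genes. The 95% interval of the log2 difference lay within -1 to 1 for 49 of 75 genes (65.3%), against 61.3% of all genes, and within -0.5 to 0.5 for 7 (9.33%), against 5.9%. For the other 26 genes the interval reached beyond a log2 difference of 1 in size. The summed TPM of the 75 genes was 8581, 8407, 8326 and 8084 in the dDAVP libraries, against 8571, 8192, 8388 and 9256 in the saline libraries, and the groups overlapped.

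Vamp3 (cellubrevin, chromosome 4, 151047305 to 151057953), a SNARE of recycling endosomes, had the smallest p of the 75 genes. Its level was 40.2, 36.3, 29.0 and 32.2 TPM in dDAVP libraries 1 to 4, against 38.5, 44.6, 97.0 and 79.6 TPM in saline libraries 1 to 4. Saline libraries 3 and 4 were high, while saline libraries 1 and 2 lay close to the dDAVP libraries, and the groups overlapped. The means were 34.4 ± 4.85 TPM under dDAVP and 64.9 ± 28.0 TPM under saline (SD, n = 4 each), a log2 difference of -0.80 (95% interval -1.52 to -0.09, limma adjusted p = 0.398). Without saline libraries 3 and 4 the difference was -0.27 (limma adjusted p = 0.746).

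Among other genes of small p, saline library 3 held the highest value for Snx13, Snx7 and Rab24, and saline library 4 for Snx14. Saline library 4 was the lowest saline library for Snx7. Snx13, a sorting nexin with an RGS domain, had 42.2, 40.3, 13.3 and 23.1 TPM in the dDAVP libraries, against 39.4, 36.7, 89.8 and 58.6 TPM in the saline libraries (log2 difference -0.93, limma adjusted p = 0.447). Its libraries 1 and 2 were alike in both groups, and its lowest and highest values were both from a library numbered 3. Snx7, an SNX-BAR protein, had 42.1, 46.2, 18.9 and 43.4 TPM under dDAVP, against 48.8, 59.4, 117 and 44.2 TPM under saline (log2 difference -0.79, limma adjusted p = 0.481). Saline library 3 was the highest and dDAVP library 3 the lowest for Snx7 too. Snx14, a relative of Snx13, averaged 31.5 ± 7.94 TPM under dDAVP and 48.5 ± 11.7 TPM under saline (log2 difference -0.61), and Rab24 averaged 121 ± 16.3 TPM under dDAVP and 162 ± 27.5 TPM under saline (log2 difference -0.41, SD, n = 4 each). Neither passed (limma adjusted p = 0.454 for Snx14 and 0.472 for Rab24).

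Vamp8 was the only 1 of the 6 genes of smallest p whose difference was above 0. It had 962, 828, 950 and 1028 TPM in the dDAVP libraries, against 828, 787, 755 and 723 TPM in the saline libraries. The groups met at a single point, where dDAVP library 2 (827.66 TPM) and saline library 1 (827.91 TPM) were level. The means were 942 ± 83.6 TPM under dDAVP and 773 ± 44.7 TPM under saline (SD, n = 4 each), a log2 difference of 0.28 (95% interval -0.00 to 0.57, limma adjusted p = 0.454).

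**Figure D2:**
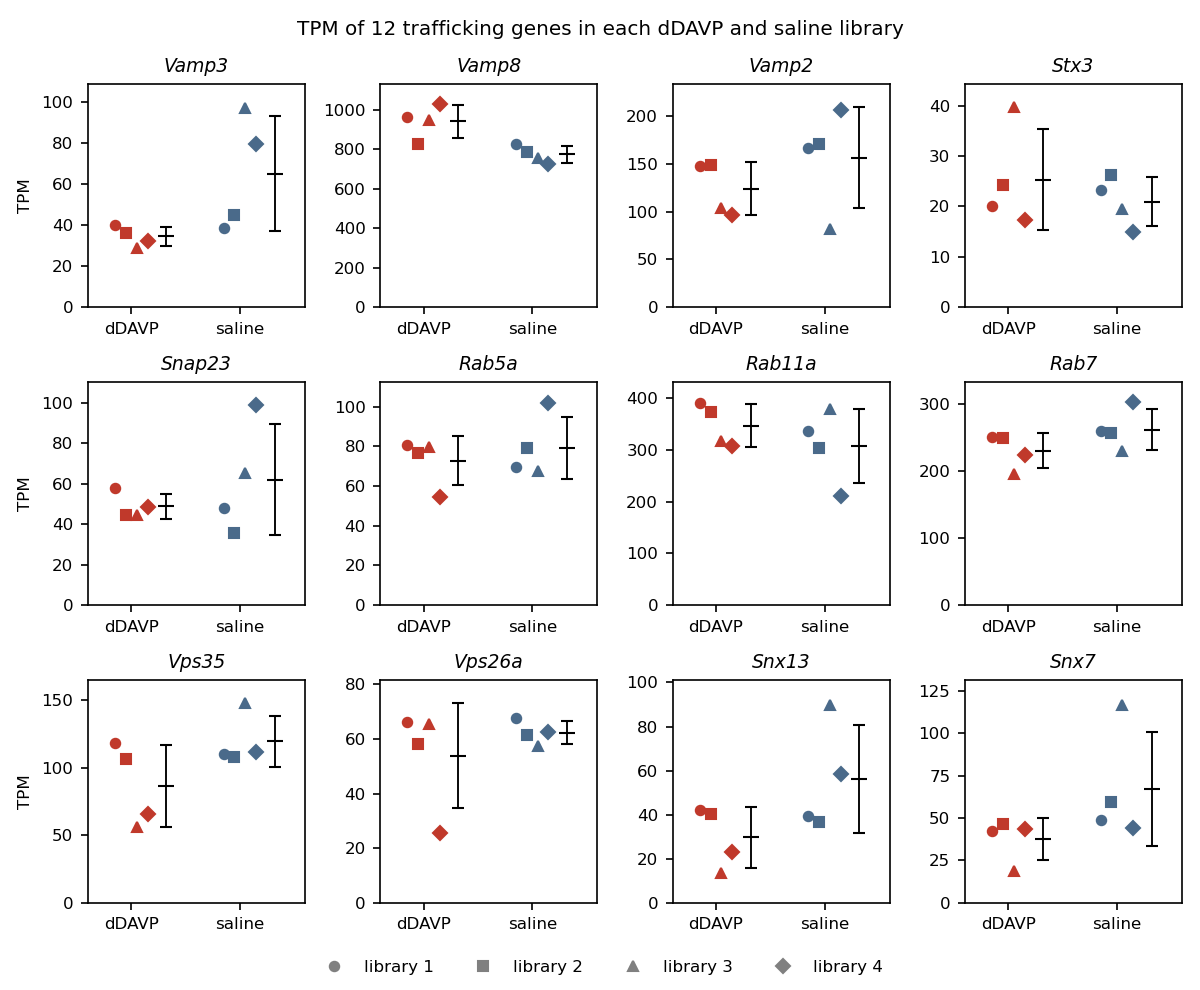
TPM (vertical axis, from 0) of 12 trafficking genes in the 4 dDAVP libraries (red, left) and the 4 saline libraries (blue, right), with a symbol for each library number and the mean ± SD in black. Saline libraries 3 and 4 set the spread of Vamp3, at 97.0 and 79.6 TPM, while Vamp8 lay between 828 and 1028 TPM under dDAVP and between 723 and 828 TPM under saline.

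Vamp3 and Vamp8 belong to a list of 14 genes of the apical and endosomal route of AQP2. Of these, 13 were tested in MT against WT units, and the dDAVP table holds 10. None of the 10 passed, and their log2 differences ran from -0.80 to 0.28. Vamp2, a SNARE of the same family as Vamp3, had 148, 149, 104 and 96.9 TPM under dDAVP and 166, 171, 82.0 and 207 TPM under saline (log2 difference -0.28, 95% interval -0.92 to 0.36). Snap23, the Snap protein of the plasma membrane, averaged 48.7 ± 6.29 TPM under dDAVP and 61.8 ± 27.4 TPM under saline, and Stx3, an apical syntaxin, 25.3 ± 10.0 TPM under dDAVP and 20.9 ± 4.91 TPM under saline. The Rab proteins of this route did not pass either. Rab11a averaged 347 ± 41.1 TPM under dDAVP and 308 ± 71.3 TPM under saline (log2 difference 0.20, 95% interval -0.23 to 0.63), and Rab7, of late endosomes, 230 ± 25.9 TPM under dDAVP and 262 ± 30.1 TPM under saline (-0.19, -0.54 to 0.17). Rab5a, of early endosomes, averaged 72.8 ± 12.5 TPM under dDAVP and 79.4 ± 15.7 TPM under saline (-0.12, -0.64 to 0.40; SD, n = 4 each throughout).

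Retromer showed no call. Vps35, its scaffold (chromosome 8, 85260385 to 85299517), had 118, 107, 56.4 and 65.5 TPM in the dDAVP libraries, against 110, 108, 148 and 112 TPM in the saline libraries. dDAVP libraries 3 and 4 were low and saline library 3 was high, while the other 5 libraries lay between 107 and 118 TPM and the groups overlapped. The log2 difference was -0.51 (95% interval -1.10 to 0.08, limma adjusted p = 0.511). Vps26a averaged 53.9 ± 19.2 TPM under dDAVP and 62.2 ± 4.18 TPM under saline, where dDAVP library 4 alone was low at 25.6 TPM. Vps29, the third part of the core, averaged 302 ± 17.3 TPM under dDAVP and 308 ± 58.7 TPM under saline (log2 difference -0.01, 95% interval -0.38 to 0.37), and this value was above 0 after rescaling or quantile normalization.

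By role, none of the listed groups held a call. The 5 genes grouped here as early endosome Rabs were Rab5a, Rab17, Rab21, Rab22a and Rab24, with Rab24 (-0.41) and Rab17 (-0.40) lowest. Their median log2 difference was -0.26. The 6 genes grouped here as HOPS and CORVET tethers had one of -0.30, and Vps33b, included in this group by name, was the lowest of them at -0.55. The 4 GARP and EARP tethers had a median of -0.14, although Vps51, a subunit shared by both complexes, had the highest difference of all 75 genes, 0.66 (87.8, 79.0, 148 and 65.0 TPM under dDAVP, against 88.8, 71.4, 48.8 and 33.6 TPM under saline, limma adjusted p = 0.511). The 7 ESCRT genes had a median of 0.21. The 10 recycling and apical Rabs had a median of 0.02, the 7 SNX-BAR proteins one of -0.16 and the other 8 sorting nexins one of -0.18. Several of these medians moved by more than 1.5 times under other settings. Without saline libraries 3 and 4 the median was 0.06 for the ESCRT genes, -0.07 for the other sorting nexins and 0.04 for the recycling and apical Rabs. After rescaling by the median of ratios it was -0.08 for the GARP and EARP tethers, -0.10 for the SNX-BAR proteins, -0.12 for the other sorting nexins and 0.08 for the recycling and apical Rabs, and after quantile normalization it was -0.08, -0.13, -0.10 and 0.09 for the same 4 lists. Of genes outside the symbol rule, 0 of 15 listed Rab and SNARE partners, 0 of 4 listed exocyst subunits and 0 of 19 listed WASH, ESCRT and Vps34 partners passed, at unadjusted p below 0.05 as well as after adjustment. The shares over all genes were 11% unadjusted and 0.695% adjusted.

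The spread between libraries was wider under saline. The median SD of log2(TPM + 1) of the 75 genes was 0.276 in the dDAVP and 0.400 in the saline libraries, beside 0.285 in the dDAVP and 0.422 in the saline libraries over all 5035 genes, and 51 of 75 genes (68.0%) had the larger SD under saline, against 69.2% of all genes. Saline library 4 held the highest of all 8 values for 29 genes (38.7%) and saline library 3 for 15 (20.0%), against 32.2% and 19.7% of all genes.

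**Figure D3:**
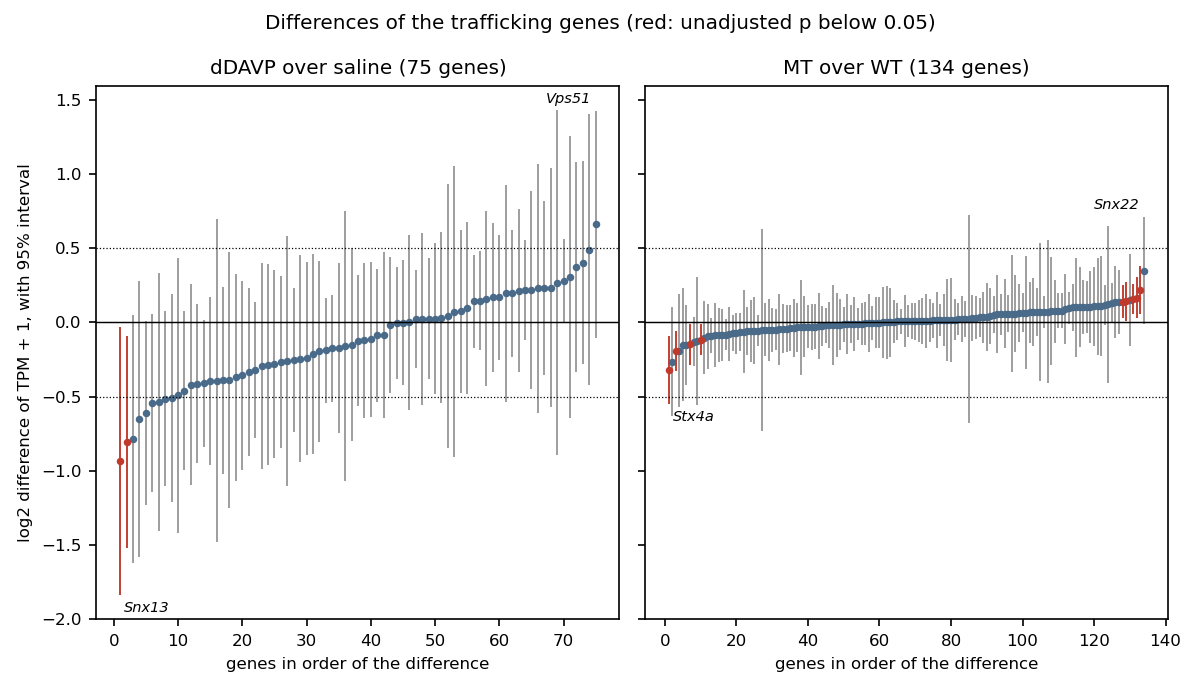
Log2 difference of TPM + 1 (vertical axis) with its 95% interval for the 75 trafficking genes in dDAVP over saline (left) and all 134 in MT over WT (right), each in the order of the difference; genes of unadjusted p below 0.05 are red and dotted lines mark -0.5 and 0.5. Within the dotted lines lay the whole interval of 7 of 75 genes on the left and of 123 of 134 genes on the right.

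The comparison of MT with WT units addressed what the β-catenin mutation does to transcripts of the CCD. None of the 134 genes passed in MT against WT units, nor did any of the 15013 genes tested (0%). At an unadjusted p below 0.05 there were 9 of 134 (6.72%), against 4.55% of all genes, and in 6 (4.48%) the MT and WT units did not overlap, against 3.02% of all genes. The median log2 difference was 0.01, with a range of -0.32 to 0.35, and it was 0.01 over all genes; 60 of 134 (44.8%) lay below 0, against 46.8% of all genes. Of markers of other segments, the 9 proximal tubule genes summed to 12.4 to 878 TPM in the MT and 17.4 to 5085 TPM in the WT libraries, and the 5 thick limb and distal convoluted tubule genes to 9.12 to 312 TPM in the MT and 8.65 to 3058 TPM in the WT libraries. The 16 immediate early genes summed to 1905 to 9739 TPM in the MT and 2384 to 15919 TPM in the WT libraries, and the 12 endothelial, stromal and immune genes to 123 to 921 TPM in the MT and 137 to 847 TPM in the WT libraries. The principal cell markers summed to 20742 to 36232 TPM in the MT and 18405 to 43199.8 TPM in the WT libraries, and the intercalated cell markers to 8274 to 9935 TPM in the MT and 7680 to 10632 TPM in the WT libraries. The ranges of MT and WT libraries overlapped for all 6 marker lists, and the part of these markers in the MT and WT values was not tested. The 95% interval lay within -1 to 1 for all 134 genes, against 90.7% of all genes, and within -0.5 to 0.5 for 123 (91.8%), against 70.1%. For those 123 genes a log2 difference beyond 0.5 in either direction lay outside the interval.

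Stx12, a syntaxin of recycling endosomes, had the smallest p. It had 47.3, 47.9, 48.6 and 49.0 TPM in MT units 1 to 4, against 43.3, 45.0, 42.9 and 41.5 TPM in WT units 1 to 4. The MT and WT units did not overlap, and the means were 48.2 ± 0.761 TPM in MT and 43.2 ± 1.42 TPM in WT units (SD, n = 4 each). The log2 difference was 0.16 (95% interval 0.06 to 0.26, limma p = 0.00699, adjusted p = 0.969). Rab29, which acts at the Golgi and lysosome, had 33.6, 29.2, 29.4 and 28.7 TPM in MT units, against 34.5, 35.4, 34.8 and 34.0 TPM in WT units (log2 difference -0.19, adjusted p = 0.969). MT unit 1 lay just under the WT units and the other 3 MT units well below it.

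Stx4a, a plasma membrane syntaxin, had the lowest difference of the 134. It had 62.1, 58.4, 47.4 and 46.3 TPM in MT units, against 70.2, 68.1, 67.2 and 61.4 TPM in WT units (log2 difference -0.32, 95% interval -0.55 to -0.09, adjusted p = 0.969). MT unit 1 and WT unit 4 overlapped. Rab8b, of apical transport, averaged 9.70 ± 0.379 TPM in MT and 8.19 ± 0.521 TPM in WT units, Rab1a, of transport between ER and Golgi, 262 ± 14.2 TPM in MT and 237 ± 6.27 TPM in WT units, and Rab5a 85.3 ± 3.66 TPM in MT and 75.9 ± 5.48 TPM in WT units (SD, n = 4 each). Their log2 differences were 0.22, 0.14 and 0.17, each with an adjusted p of 0.969, and that of Rab8b was 0.115 with a pseudocount of 10 in place of 1. The remaining genes of unadjusted p below 0.05 were Rab2a at 0.14, Snx6 at -0.12 and Vps72 at -0.15, of which Vps72 encodes a subunit of chromatin complexes and shares only the name with the sorting genes.

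**Figure D4:**
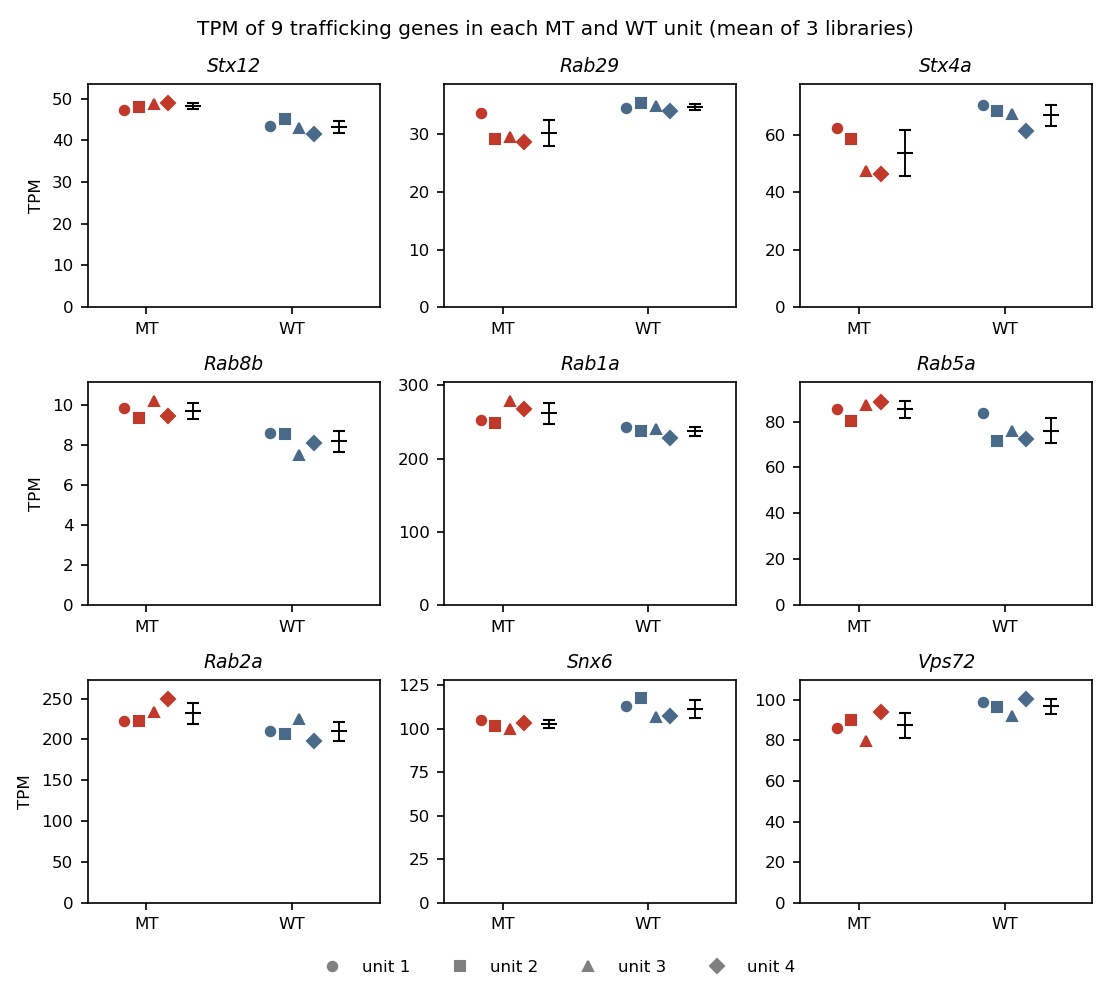
TPM (vertical axis, from 0) of the 9 trafficking genes of unadjusted p below 0.05 in the 4 MT units (red, left) and the 4 WT units (blue, right), each unit the mean of 3 libraries, with the mean ± SD in black. Stx12 lay between 47.3 and 49.0 TPM in MT and between 41.5 and 45.0 TPM in WT units; no gene shown passed after adjustment.

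Vamp3 and Vps35 had like levels in both genotypes. Vamp3 had 47.6, 47.6, 53.5 and 50.4 TPM in MT units, against 52.7, 41.5, 44.2 and 47.01 TPM in WT units (log2 difference 0.10, 95% interval -0.08 to 0.28). Vps35 had 95.4, 91.2, 99.2 and 112 TPM in MT units, against 92.4, 91.8, 101 and 84.4 TPM in WT units (log2 difference 0.10, 95% interval -0.07 to 0.28). In both genes the groups overlapped. The 4 retromer core genes had log2 differences of 0.02 to 0.10, which became -0.02 to 0.06 after rescaling by the median of ratios. The 13 tested genes of the AQP2 list had a median of 0.02. Outside the symbol rule, the 9 exocyst subunits had log2 differences of 0.02 to 0.18. Rescaling by the median of ratios moved the median of all genes from 0.01 to -0.03, and the exocyst values were not examined under it. An unadjusted p below 0.05, found for 4.55% of all genes, was reached by 2 of the 9 (Exoc3 and Exoc4). It was reached by 0 of 33 Rab and SNARE partners and by 1 of 30 WASH, ESCRT and Vps34 partners (Chmp5, an ESCRT-III protein, at 0.23). None of these passed after adjustment.

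Within the β-catenin table the trafficking genes varied little between libraries. For the 113 of them with a mean of 10 TPM or more, the median SD of log2(TPM + 1) was 0.118 within a unit and 0.0947 between the units of a group, beside 0.139 and 0.118 for the 8842 genes at that level. The SD within a unit is over single libraries, and that between units is over means of 3 libraries, which vary less. The within and between values therefore cannot be compared directly. The most even genes were Rab1b, which spanned 273 to 325 TPM over the 24 libraries (SD 0.067 on the log2 scale), Snx1 (98.4 to 116 TPM, SD 0.068) and Vamp8 (475 to 595 TPM, SD 0.073). The most variable were Vps37b, an ESCRT-I subunit, at 12.3 to 36.9 TPM (SD 0.378), Snx10, of endosomes, at 14.3 to 39.9 TPM (SD 0.359), and Vamp5, best known from muscle, at 19.3 to 50.1 TPM (SD 0.343). Vps37b differed mainly between units, with an SD of 0.382 between and 0.191 within units: it was 19.0, 30.7, 26.9 and 23.4 TPM in MT units and 29.3, 14.9, 19.8 and 29.8 TPM in WT units.

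Chromatin accessibility was the readout in which trafficking genes passed a threshold. In the authors' deposited ATAC-seq table, 105 of the 134 genes had a peak annotated at their promoter, and the strongest such peak was lower in dDAVP than in saline for 46 (43.8%) and higher for 0 at the authors' adjusted p below 0.05. The background was 35.1% lower and 0.224% higher over 12507 genes. The fold change was below 0 for 100 of the 105 trafficking genes and for 10864 of the 12507 genes, so lower promoter signal was widespread in this comparison. The part of library scaling or signal quality in this shift was not tested. At an adjusted p below 0.01 there were 20 (19.0%), against 17% of all genes. The median log2 fold change was -0.52 for the trafficking genes and -0.48 for all genes. The promoter peaks of the trafficking genes were stronger, with a median log2 signal of 7.51 against 6.46, and calls were rare in weak peaks. Among peaks above a log2 signal of 5, 46 of 75 (61.3%) were lower and 0 higher, against 55.4% and 0.0641% of all genes, and at or below 5 there were 0 of 30 in either direction, against 1.47% lower and 0.489% higher. Peaks with another label, such as the 5′ UTR peak over the Rab5a start, were not counted as promoters. A gene whose main peak has such a label enters with a weaker peak. The deposited table gives group means only, so the spread between the 3 libraries of a group could not be seen.

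Stx4a had the largest called difference. In the authors' deposited table its promoter peak had a log2 signal of 4.34 in dDAVP and 5.58 in saline libraries (log2 fold change -1.12, adjusted p = 0.0143). Snx18, an SNX-BAR protein, had 4.39 in dDAVP and 5.58 in saline (-1.07, adjusted p = 0.0206), and Rab5a 5.20 in dDAVP and 6.19 in saline (-0.87, adjusted p = 0.00948). These 3 were the weakest of the 46 called peaks, and the fold changes of the others were smaller, down to -0.24 for Rab40c. By family, 19 of 44 Rab, 3 of 6 Vamp, 3 of 9 Stx, 2 of 3 Snap, 10 of 21 Vps and 9 of 22 Snx genes were lower, beside the 35.1% of all genes; differences between families were not tested. The promoter peaks that hold the palindrome shown above include called ones at Vps26a (8.38 in dDAVP and 9.12 in saline, adjusted p = 0.0022), Rab24 (7.05 in dDAVP and 7.90 in saline, adjusted p = 0.00441) and Rab21 (7.44 in dDAVP and 8.24 in saline, adjusted p = 0.0057), all from the authors' deposited table, while that of Vps33a (6.53 in dDAVP and 7.13 in saline, adjusted p = 0.0956) was not called. The peak over the Vps16 window, which the table assigns to Pced1a and which is not among the 105, had 8.25 in dDAVP and 8.92 in saline (adjusted p = 0.0113). The peak at the Rab5a sites, annotated as 5′ UTR, had 9.05 in dDAVP and 9.75 in saline (log2 fold change -0.59, adjusted p = 0.000144). It covers the transcript start, and its fall was smaller than that of the weaker Rab5a peak ranked above, which lies before the start.

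**Figure D5:**
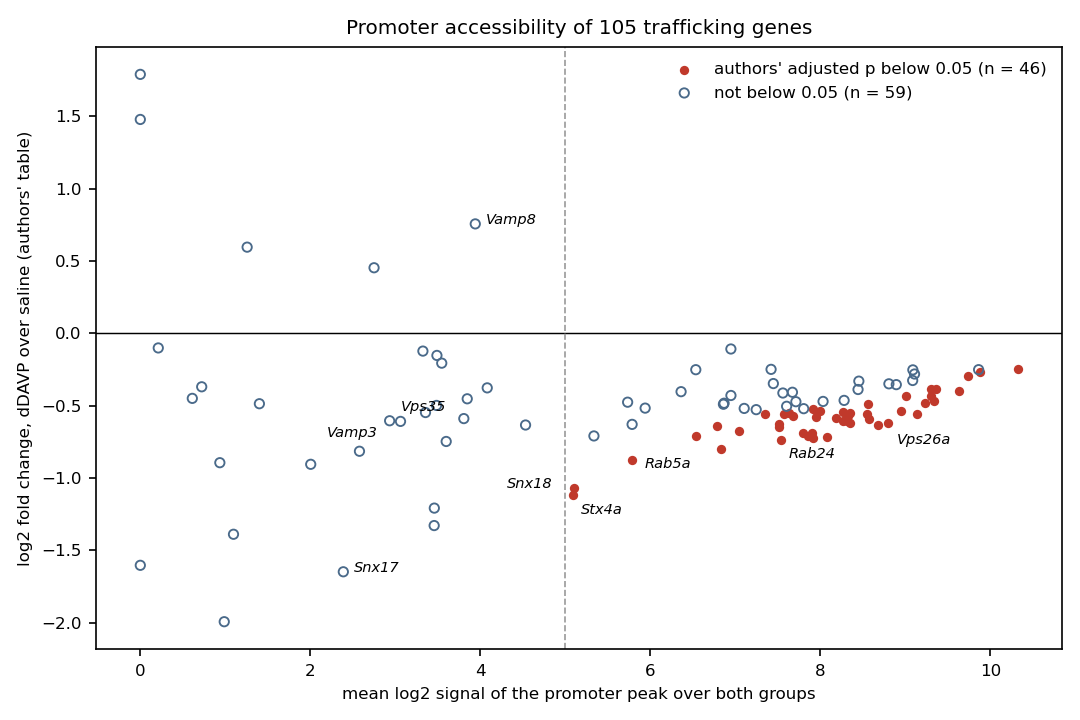
Log2 fold change of dDAVP over saline (vertical axis) against mean log2 signal over both groups (horizontal axis) for the strongest promoter peak of 105 trafficking genes, from the authors' deposited table; filled red points have an adjusted p below 0.05. All 46 red points lie below 0 and right of the dashed line at a signal of 5, and the 3 lowest of them are Stx4a, Snx18 and Rab5a.

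Of the 6 genes of smallest RNA p under dDAVP, Rab24 and Snx14 had promoter peaks called lower. The peaks labelled promoter at Vamp3, Vamp8, Snx13 and Snx7 were below a signal of 5 and not called. Such a peak need not be the one over the transcript start, so a weak signal there does not show a closed promoter. Those of Vamp3 and Vps35 were 96 and 171 bases wide. In the authors' deposited table Snx14 had 9.03 in dDAVP and 9.53 in saline (log2 fold change -0.38, adjusted p = 0.0275), Snx13 3.2 in dDAVP and 3.44 in saline (-0.12, adjusted p = 0.922), and Snx7 3.1 in dDAVP and 3.97 in saline (-0.75, adjusted p = 0.348). In the same table Vamp3 had 2.52 in dDAVP and 3.25 in saline (log2 fold change -0.60, adjusted p = 0.564) and Vamp8 4.23 in dDAVP and 3.58 in saline (0.76, adjusted p = 0.322). The peak of Vps35, of retromer, had 2.65 in dDAVP and 3.38 in saline there (-0.61, adjusted p = 0.544). Across genes, which are not independent replicates, the Spearman correlation of promoter signal with RNA level was 0.01 over 105 genes. That level was the mean over the 24 β-catenin libraries, and genes whose main peak has another label entered with a weaker one. The value therefore cannot show how promoter accessibility relates to RNA level. For promoter fold change with RNA difference under dDAVP the correlation was 0.12 over 60 genes, with the same limit of labels. In both, the RNA and the chromatin came from different libraries.

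Outside promoters, the authors' deposited table assigned 1522 peaks to 119 of the 134 genes. Of these, 68 (4.47%) were lower and 10 (0.657%) higher in dDAVP, against 4.52% and 0.895% of 252298 such peaks of all genes. The 10 higher peaks were assigned to Vps13d, Vps26c, Rab6b, Snx19 (2 peaks), Snx29, Rab31, Rab42, Stx2 and Vps8. The strongest lay in an intron of Vps8, the CORVET subunit, at chr16:21512159-21512871 in mm10, with a log2 signal of 5.35 in dDAVP and 4.49 in saline (log2 fold change 0.97, adjusted p = 0.0453). The others were weak, and the peaks at Rab42, Stx2 and 1 of those at Snx19 had a saline signal at the table's floor of 0, so no fold is given for them.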

How the data were processed

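Members and gene lists were chosen with earlier results of these data known. Both RNA-seq tables hold TPM computed by the authors; STAR and RSEM are named, with the build mm10, per the submitters' processing notes. TPM keeps no depth, so the depth of each library is unknown and no counting interval is given; listed TPM summed to 895155 to 925759 per library in the dDAVP table, whose lowest value was 10.01. The deposited ATAC-seq table gives, per the file headers, a log2 signal per group, a log2 fold change and a p-value with its adjusted value for each peak; cutadapt 3.4, Bowtie2, MACS2 and DiffBind are named per the submitters' processing notes. The fold change there is close to, but not exactly, the difference of the group signals.

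Each RNA-seq table was fitted whole, on log2(TPM + 1), by limma's moderated test with a mean-variance trend (limma 3.58.1, R 4.3.3), two-sided, with Benjamini-Hochberg adjustment over all genes and a threshold of 0.05. Log2 differences are on that scale, which understates changes of low genes. For the β-catenin table, genes of mean TPM 1 or more were tested, with the mean of the 3 libraries of a unit as the replicate. The script was tested on simulated data for the size of the estimated change, and the share of changed genes that it calls is not given here. Peaks were taken as the authors called and annotated them, the strongest promoter peak per gene. Alternatives changed the pseudocount (0.1 or 10), scaling, the minimum TPM, the replicate block, and left out each replicate.

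Named genes were the members called, the 6 of smallest p in each RNA-seq comparison, the 3 of highest level in each family, the AQP2 list and retromer core, the 3 largest called promoter changes, the 3 largest and 3 smallest SDs, and 2 on either side of the TPM limit. Genes named beyond these (such as Vps51, Rab25 and the exocyst subunits) were chosen after their values were seen. Positions are those of GRCm38.p6, on which all 134 members were placed.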

Additional observations from a re-analysis of the deposited data

Results flagged for a closer look

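In 12 of 146 groups of 4 libraries or units, over 43 named members, the highest or lowest value stood far from the other 3 by Dixon's criterion. Among unselected, independent groups, chance alone sets apart about 1 group in 20. These genes were in part picked by p or SD in the same data and share their libraries, so that share is no exact reference here. In the dDAVP libraries, Snap47 had 141 TPM in library 2 against 126 to 127 TPM in the others, Rab5a 54.3 TPM in library 4 against 76.9 to 80.7 TPM, and Snx7 18.9 TPM in library 3 against 42.1 to 46.2 TPM. In the saline libraries, Vps35 had 148 TPM in library 3 against 108 to 112 TPM, Rab29 59.1 TPM in library 4 against 28.8 to 32.9 TPM, and Stx5a 160.47 TPM in library 4 against 83.8 to 96.5 TPM. All 3 of these came from saline libraries 3 and 4, which also correlated least with the others.

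In the MT units, Rab29 had 33.6 TPM in unit 1 against 28.7 to 29.4 TPM in the others, and Vps26a 54.5 TPM in unit 2 against 57.9 to 58.4 TPM. In the WT units all 4 such values came from unit 2: Vamp8 at 561 TPM against 513 to 518 TPM, Stx7 at 347 TPM against 303 to 311 TPM, Rab11b at 103 TPM against 91.0 to 92.5 TPM, and Vamp5 at 44.1 TPM against 25.6 to 28.4 TPM.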

How the results depend on the processing

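The count of trafficking genes called was 0 of those tested under all 15 alternatives of the dDAVP comparison and all 16 of the MT comparison. Leaving out 1 replicate at a time, the counts ranged from 0 to 0 in both. The smallest adjusted p was 0.303 (Rab34, without saline replicate 4) and 0.524 (Stx12, with the libraries fitted and the unit as a random block). Over all genes, calls ranged from 7 (without dDAVP replicate 3) to 47 (without saline replicate 4) in the dDAVP comparison, beside 35 with all libraries, and from 0 to 5 (without MT replicate 4) in the MT comparison. With the number in the titles as a replicate block, 0 trafficking genes were called in either comparison, and of all genes 8 were called for dDAVP and 0 for MT. Same-numbered samples deviated together with correlations of 0.19, 0.23, 0.09 and -0.15 for dDAVP and saline, and of -0.03 to 0.04 for MT and WT, so the numbers were not taken to pair the samples. Of the named genes' differences, 1123 under the alternatives stayed within the spread between replicates or on the same side of the threshold and 7 moved further. Of these 7, 4 came from leaving out saline libraries 3 and 4 together, a choice made after seeing the data: Vamp3 was then at -0.27, Snap47 at 0.02, Snap23 at 0.23 and Snx3 at -0.01. The other 3 were differences of MT against WT: Rab8b was at 0.115 with a pseudocount of 10 (0.22 with 1), and after rescaling by the median of ratios Stx12 was at 0.11 (0.16 before) and Rab1b at -0.04 (0.01 before). The count of lower promoter peaks was 46, and was 20 at the authors' adjusted p below 0.01 (19.0%, against 17% of all genes); it was 47 of 151 with all promoter peaks counted (31.1%, against 25.8%). With 4 samples a group and depth unknown, 26 of 75 intervals of the dDAVP comparison reached beyond a log2 difference of 1 in size, and genes with 10 TPM or less in any library were not tested there.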
